A study of Mus musculus with 48 samples.

Results

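The proteasome subunit genes were taken as every probe, other than control spots, whose gene name on the array was Psma, Psmb, Psmc or Psmd followed by a number. This gave 39 genes of the 34844 gene names on the array, with 48 probes of 55681. Of these genes, 30 had 1 probe and 9 had 2 probes. In each tissue 45 probes for 37 genes were detected, and the values below refer to these. Psma8, an alpha subunit known from testis, and Psmb11, the catalytic subunit of the thymus, had no detected probe in blood or in the medial prefrontal cortex (mPFC), and the other undetected probe was a second probe of Psmb9.

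The study used female C57BL/6J mice that were 17 weeks old and measured blood and mPFC of the same 24 mice, 6 in each of 4 groups, on 48 one-colour arrays. The control mice had a sham operation and no stress. The OVX mice had a bilateral ovariectomy, a model of menopause, and no stress. The CUMS mice had a sham operation and chronic ultra-mild stress, a schedule of mild changes of cage, light and access to food. The OVX+CUMS mice had the ovariectomy and the stress. Blood was the pellet left after heparinized blood had been centrifuged, so it held red cells, white cells and platelets together, and the mPFC was dissected from brain slices and held all of its cell types. In such bulk samples, fewer cells of a type and less RNA per cell cannot be told apart.

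The arrays of each tissue lay on 3 slides of 8. Slide 1 held the 6 control arrays and 2 CUMS arrays, slide 2 held 4 OVX and 4 CUMS arrays, and slide 3 held 2 OVX arrays and the 6 OVX+CUMS arrays. Controls and OVX mice therefore never shared a slide. The 75th percentile of the processed signal ran from 54.9 to 192 in blood and from 572 to 689 in mPFC. Its mean in blood was 144 in OVX, 126 in OVX+CUMS, 110 in control and 86.3 in CUMS mice. Counts of signals above background in blood were 30493 to 34857 in OVX and 30182 to 32594 in OVX+CUMS mice. They were 28123 to 30946 in control and 23602 to 29404 in CUMS mice. In mPFC the mean percentile was 651 in control, 620 in CUMS, 612 in OVX and 604 in OVX+CUMS mice. The part of these differences in the proteasome results was not tested. The erythroid markers were all detected in blood, where 2 of 6 neuronal markers were detected, and all 6 neuronal markers were detected in mPFC. Neutrophil markers summed to 3578 in blood of OVX+CUMS mouse 5, on the linear scale relative to the 75th percentile, against 322 to 969 over the control, OVX and CUMS mice.

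The proteasome is the protease that degrades proteins tagged with ubiquitin. Its core is a barrel of alpha rings, which form the gate, around beta rings, which carry the catalytic sites. A cap of ATPases and other subunits binds ubiquitin chains, removes them and unfolds the substrate. In immune cells, and in other cells under interferon, the catalytic subunits Psmb5, Psmb6 and Psmb7 are replaced by Psmb8, Psmb9 and Psmb10. The resulting immunoproteasome makes peptides for presentation on MHC class I, and Psmb8 and Psmb9 lie in the MHC region of the mouse.

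The upstream sequences of catalytic subunits are shown because Psmb8 and Psmb9 and the genes they replace differed in opposite directions between the tissues. The 4 sequences are the 250 bases before the RefSeq transcription start on GRCm38.p6, written 5′ to 3′ on the strand of the gene. For Psmb8 (chr17:34197945-34198194, plus strand) the capitals mark the core of a gamma-activated site (TTCNNNGAA), beginning 97 bases before the start. For Psmb9 (chr17:34187331-34187580, minus strand) they mark a CCAAT box read on the other strand, 8 bases before the start. For Psmb5 (chr14:54617996-54618245, minus strand) and Psmb6 (chr11:70525107-70525356, plus strand) they mark the core of an antioxidant response element (TGACNNNGC), 47 and 9 bases before the start.
Psmb8: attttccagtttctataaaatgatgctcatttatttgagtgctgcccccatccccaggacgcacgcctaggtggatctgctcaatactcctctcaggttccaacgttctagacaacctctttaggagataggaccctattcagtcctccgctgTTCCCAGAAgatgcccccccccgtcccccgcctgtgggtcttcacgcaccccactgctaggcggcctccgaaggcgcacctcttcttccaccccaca
Psmb9: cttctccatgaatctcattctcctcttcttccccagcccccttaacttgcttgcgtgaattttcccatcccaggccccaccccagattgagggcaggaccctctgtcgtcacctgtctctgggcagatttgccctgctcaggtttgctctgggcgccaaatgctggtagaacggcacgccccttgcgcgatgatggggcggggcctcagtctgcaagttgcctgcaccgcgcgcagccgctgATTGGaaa
Psmb5: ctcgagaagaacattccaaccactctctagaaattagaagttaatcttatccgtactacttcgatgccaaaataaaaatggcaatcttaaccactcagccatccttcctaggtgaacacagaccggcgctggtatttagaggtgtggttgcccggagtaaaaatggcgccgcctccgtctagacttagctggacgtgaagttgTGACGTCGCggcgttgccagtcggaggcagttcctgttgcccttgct
Psmb6: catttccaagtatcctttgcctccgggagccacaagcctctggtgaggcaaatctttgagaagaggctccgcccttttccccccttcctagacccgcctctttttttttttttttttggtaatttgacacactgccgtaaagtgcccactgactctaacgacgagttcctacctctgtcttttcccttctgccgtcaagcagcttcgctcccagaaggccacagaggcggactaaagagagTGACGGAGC

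Both strands of the 34 upstream windows that matched 32 member genes were searched, beside 32851 windows of all genes of that length. The antioxidant response element core was found in 5 member windows (14.7%; 10.2% of all windows), namely those of Psmb5, Psmb6, Psmc6, Psmd9 and Psmd12. The gamma-activated site core was found in the Psmb8 window only (2.94% of member windows and 7.02% of all). The core of the interferon-stimulated response element was found in 3 member windows (8.82%, against 2.98%), those of Psmb3, Psmd4 and Psmd9. The CCAAT box was found in 13 member windows (38.2%, against 33.8%). These matches are descriptions of letters in the window. The upstream window of Psmb10 held none of the 4 motifs.

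Psmb8 and the Psmb5 gene that it replaces are related in sequence, which bears on how far their probes can be told apart. The array files place the Psmb8 probe at chr17:34337771-34337830 (plus strand) and the second probe of Psmb5, which is not its leading one, at chr14:55233161-55233220 (minus strand) of mm9. Of 50 aligned bases of these 60-base probes, 31 (62%) were identical, marked by capitals. Cross-hybridization was not tested.
Psmb8 probe: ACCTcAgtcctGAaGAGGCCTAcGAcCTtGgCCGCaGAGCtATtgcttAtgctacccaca
Psmb5 probe: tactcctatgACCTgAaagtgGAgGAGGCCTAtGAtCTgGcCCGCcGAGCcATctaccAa

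Levels below are the log2 processed signal of the gene's leading probe, the detected probe with the highest mean signal, minus the 75th percentile of its array. They compare groups and tissues for 1 probe, and not 1 gene with another. A difference was called when limma's adjusted p (Benjamini-Hochberg, over all detected probes of the tissue) was below 0.05.

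Blood and mPFC differed in every detected subunit, and most subunits were lower in blood. Of the 37 genes, 34 were lower in blood and 3 were higher, and over the 45 probes 41 were lower and 4 higher. The median difference of the member probes was -1.87 on the log2 scale, whereas that of all probes was 0.43. Over all 17544 probes detected in both tissues, 54.6% were called higher and 41.7% lower in blood. Each slide held 1 tissue, so tissue and slide cannot be told apart.

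The 3 genes that were higher in blood were Psmb9, Psmb8 and Psmd4. In blood, Psmb8 ranged from 2.52 to 3.89 over the 24 mice. In mPFC it ranged from -1.74 to -0.89, and the ranges did not overlap. The mean difference of Psmb8 was 4.89 ± 0.04 (SE; limma, adjusted p = 1.34e-32), or 29.7-fold. Psmb9 was higher in blood by 4.96 ± 0.05 on the log2 scale, or 31.2-fold (limma, adjusted p = 7.12e-32). Psmd4, a ubiquitin receptor of the cap, was higher by 0.83 ± 0.05 (limma, adjusted p = 6.59e-15). A shift set on the spike-in RNAs in place of the 75th percentile moved the median of all probes to -1.48. With it Psmd4 was lower in blood (-1.09), and 2 member probes were higher and 43 lower. The share of all probes called with that shift is not given here, so these counts do not set the members apart. By that scale Psmb8 was higher in blood by 2.98, or 7.87-fold, and Psmb9 by 3.05, or 8.26-fold.

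**Figure D1:**
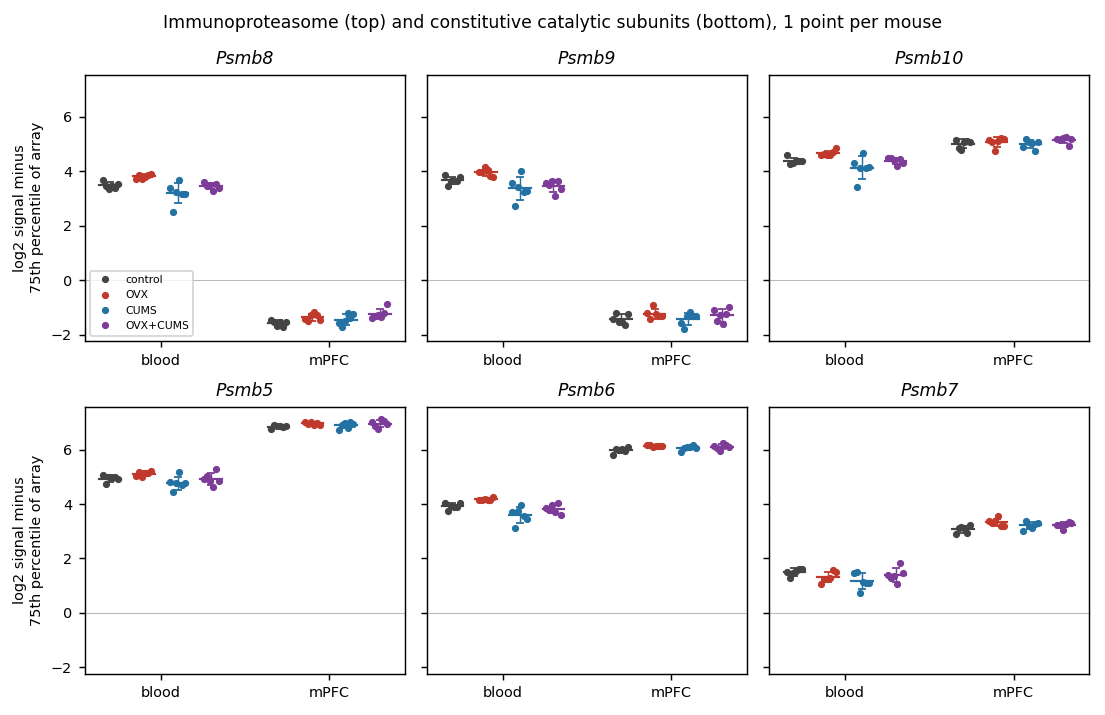
Levels of the immunoproteasome subunits (top) and of the constitutive catalytic subunits (bottom) in blood and mPFC, as log2 processed signal minus the 75th percentile of the array; each point is 1 mouse (6 per group), and bars give the mean and SD. Psmb8 and Psmb9 stood far higher in blood, whereas the other 4 genes stood lower there; heights of different genes are not comparable.

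The third immunoproteasome subunit did not share this pattern. Psmb10 was lower in blood by 0.67 on the log2 scale (difference -0.67 ± 0.06, limma, adjusted p = 2.19e-11). The constitutive partners were all lower in blood, Psmb5 by 1.98 (difference -1.98 ± 0.05), Psmb6 with a difference of -2.19 ± 0.04 and Psmb7 with a difference of -1.87 ± 0.05. The alpha ring genes were lower in 7 of 7 cases (median -1.66, from -2.64 to -1.40), and the noncatalytic beta genes in 4 of 4 (median -1.28). The cap ATPases, which unfold substrates, were lower in 6 of 6 cases (median -2.32), and 10 of 11 of the cap's other subunits were lower (median -1.88).

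The most negative differences were those of Psmc5 (-3.51 ± 0.05), a cap ATPase, Psmd1 (-3.15 ± 0.05), a scaffold subunit of the cap, and Psmd7 (-2.85 ± 0.04), a subunit of the cap's lid. The 3 chaperones of cap assembly that carry the Psmd name were also lower in blood (median -1.53). For 1 of these, Psmd10, the 2 probes disagreed, with differences of -1.61 ± 0.06 and 0.34 ± 0.04, each called by limma (adjusted p = 1.03e-18 and 9.06e-09).

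**Figure D2:**
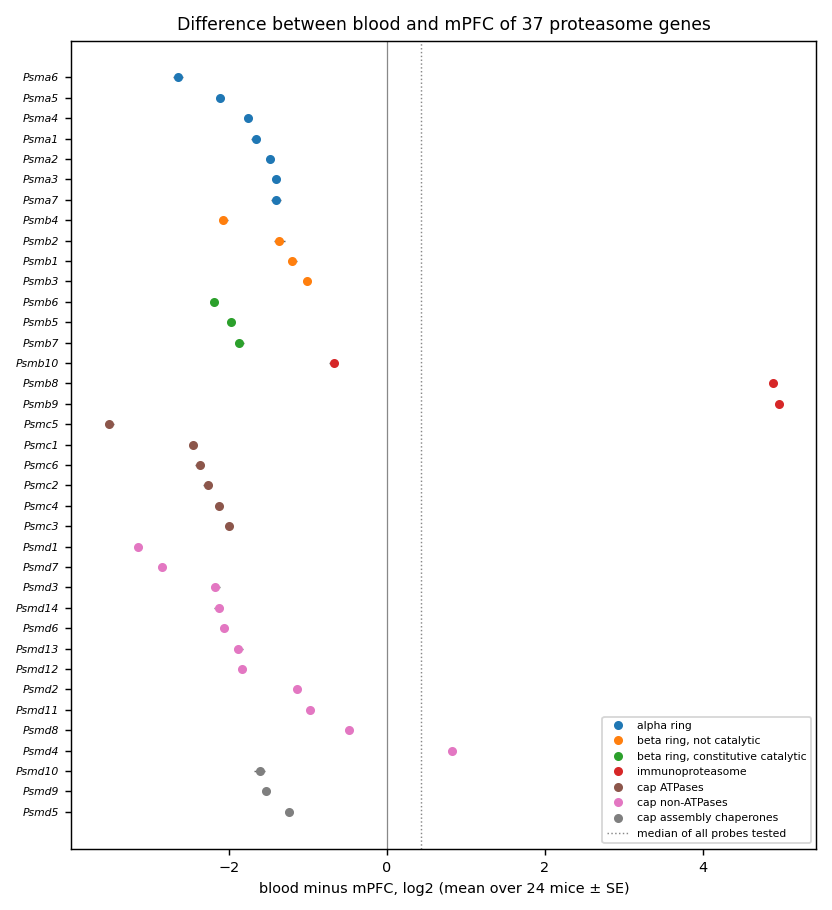
Blood minus mPFC difference (log2, mean over 24 mice; bars show SE and are mostly narrower than the points) of the 37 detected proteasome genes, ordered by class. All points but Psmb8, Psmb9 and Psmd4 lay below 0 (Psmd4 too with a spike-in shift), and the dotted line marks the median of all probes, 0.43.

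In blood, most subunits were higher in ovariectomized mice. The effect of OVX was the mean over stressed and unstressed mice. Of the 37 genes, 23 rose, 1 fell and 13 did not pass the test, and over the 45 probes 26 rose and 1 fell. The median over the member probes was 0.27, and that over all probes was 0.04. Of all probes detected in blood, 27.4% were called higher and 27.7% lower. When slide entered the fit as a block, no member probe was called (limma; 0 also at an unadjusted p below 0.05), nor was any of the 20767 probes tested, and the members' median was 0.05. Among OVX mice, slide 3 minus slide 2 (2 against 4) had 38 of 45 member probes higher (median 0.15, all probes 0.07). Limma called 1 of them, beside 524 higher and 728 lower of all probes. Among CUMS mice, slide 2 minus slide 1 (4 against 2) had 34 member probes higher (median 0.14, all probes 0.03, 0 called by limma). Controls and OVX mice shared no slide. For the OVX effect the spike-in shift moved the median of all probes from 0.04 to 0.39, and with it 42 member probes were called higher and 0 lower (median 0.62). The share of all probes called with that shift is not given here, so the 42 does not set the members apart.

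The alpha ring rose in 7 of 7 genes (median 0.31). Psma6, an alpha subunit, measured 1.09, 0.61, 0.77, 0.72, 0.92 and 1.15 in the control mice and 1.52, 1.66, 1.48, 1.58, 1.48 and 1.59 in the OVX mice. The groups did not overlap. Under stress Psma6 ranged from 0.23 to 1.31 in CUMS mice and from 0.81 to 1.49 in OVX+CUMS mice, which overlapped. Its OVX effect was 0.54 ± 0.10 (limma, adjusted p = 0.000283). Psma1, another alpha subunit, rose by 0.46 ± 0.10 (limma, adjusted p = 0.00106), and its control (2.62 to 3.01) and OVX (2.81 to 3.32) values overlapped. Psmd3, a cap subunit, rose by 0.42 ± 0.11 (limma, adjusted p = 0.00292), with levels of 2.75 to 3.63 in controls and 3.82 to 4.08 in OVX mice.

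Of the immunoproteasome genes, Psmb8 (0.30 ± 0.09, adjusted p = 0.00878) and Psmb10 (0.27 ± 0.09, adjusted p = 0.0199) rose in limma's test, and Psmb9 had an effect of 0.19 ± 0.10 (adjusted p = 0.112). With slide as a block the effect of Psmb8 was -0.018 and that of Psmb10 was -0.11. The 6 controls had Psmb8 levels of 3.68, 3.45, 3.35, 3.46, 3.38 and 3.55, and the 6 OVX mice 3.71, 3.85, 3.71, 3.81, 3.88 and 3.89. All 6 OVX mice stood above all controls. Among the constitutive catalytic genes Psmb6 rose by 0.24 ± 0.08 (limma, adjusted p = 0.0126), and Psmb5 (0.17 ± 0.08) and Psmb7 (0.02 ± 0.09) did not pass the test.

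The cap was mixed. Of the 6 ATPases 4 rose (median 0.33), and of the 11 other cap subunits 5 rose and 1 fell. The gene that fell was Psmd4. It measured 6.35, 6.90, 6.73, 6.76, 6.64 and 6.31 in control mice and 6.61, 6.24, 6.84, 6.34, 6.16 and 6.20 in OVX mice, and these groups overlapped. Its OVX effect was -0.37 ± 0.09 (limma, adjusted p = 0.00301), and with slide as a block it was -0.005 (adjusted p = 0.997). With the spike-in shift it was -0.02 (limma, adjusted p = 0.866), so that no fall was called. Without stress, 11 of 37 genes had all OVX mice above all control mice and none had them below, whereas 7.34% of all probes lay wholly above and 12.4% wholly below.

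CUMS went with lower levels of most subunits in blood. Of the 37 genes, 25 fell, 1 rose and 11 did not pass the test, and over the 45 probes 31 fell and 1 rose. The median was -0.25 over the member probes and -0.03 over all probes. Of all probes, 29.4% were called lower and 19.1% higher. The fit with slide as a block also gave 31 probes lower and 1 higher, with a median of -0.37. The spike-in shift moved the median of all probes to -0.33 and gave 37 member probes lower and 0 higher (median -0.54). The shares of all probes called in these alternative fits are not given here, so their counts do not set the members apart.

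All 3 immunoproteasome genes fell, with effects of -0.40 ± 0.10 for Psmb9 (adjusted p = 0.00481), -0.32 ± 0.09 for Psmb8 (adjusted p = 0.00815) and -0.27 ± 0.09 for Psmb10 (adjusted p = 0.0241) in limma's test. Psmb9 measured 3.85, 3.47, 3.63, 3.64, 3.65 and 3.78 in the controls and 3.56, 2.74, 3.44, 3.997, 3.22 and 3.27 in the CUMS mice. CUMS mouse 2 was the lowest and CUMS mouse 4 the highest of these 12 mice. Of the constitutive partners Psmb6 fell (-0.34 ± 0.08, adjusted p = 0.00257), and Psmb5 (-0.18 ± 0.08) and Psmb7 (-0.12 ± 0.09) did not pass the test.

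All 6 cap ATPases fell (median -0.30). Psmc6, an ATPase, had the most negative effect (-0.42 ± 0.10, limma, adjusted p = 0.00339), with controls at 1.05, 0.46, 0.74, 0.83, 0.71 and 1.05 and CUMS mice at 0.52, -0.20, 0.17, 0.65, 0.03 and 0.26. The alpha subunit Psma4 fell with an effect of -0.40 ± 0.09 (limma, adjusted p = 0.00242), and its levels were 1.40 to 1.71 in controls and 0.48 to 1.35 in CUMS mice. In the alpha ring 5 of 7 genes fell, among the other cap subunits 7 of 11 fell, and none of the 3 chaperones of cap assembly passed the test.

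Psmd4 again went the other way. It rose by 0.37 ± 0.09 (limma, adjusted p = 0.00446), and by 0.55 with slide as a block (adjusted p = 0.00919). With the spike-in shift its effect was 0.08 ± 0.11 (limma, adjusted p = 0.595), so that the rise was not called, although it stayed above the median of all probes. CUMS mice measured 7.01, 7.57, 7.13, 7.03, 7.16 and 6.95, all above the highest control at 6.90. OVX+CUMS mice ranged from 6.39 to 6.77. This was the only member gene with all CUMS mice above all controls, and 3 genes (Psma4, Psmd1 and Psmd7) had all CUMS mice below all controls, whereas 1.37% and 2.67% of all probes lay wholly above and wholly below.

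**Figure D3:**
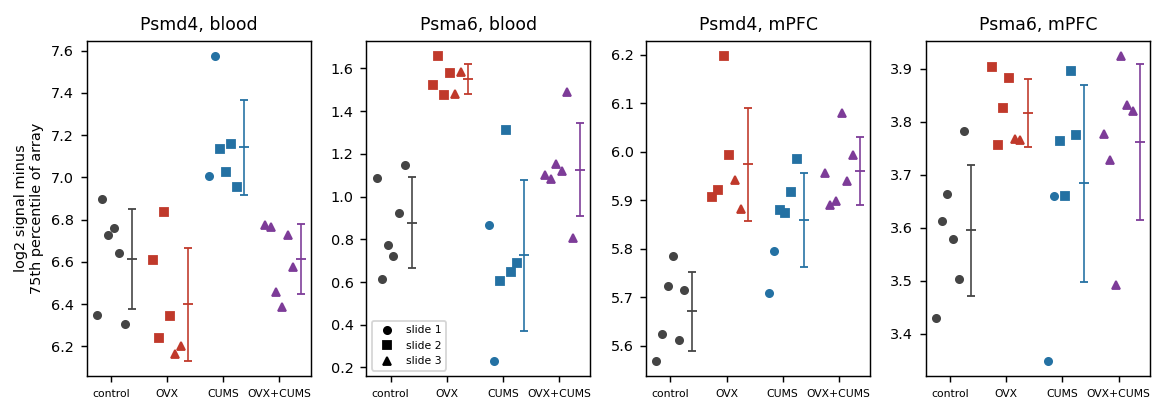
Levels of Psmd4 and Psma6 in blood and mPFC (log2 processed signal minus the 75th percentile of the array); each symbol is 1 mouse, its shape gives the slide, and the bar gives the mean and SD of 6 mice. In blood Psmd4 was highest in the CUMS mice (6.95 to 7.57), a rise not called with the spike-in shift, and Psma6 in the OVX mice (1.48 to 1.66), which shared no slide with the controls.

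Some markers of erythroid cells, B cells and T cells in blood also differed with OVX and CUMS. The effects on the other marker lists in blood are not given here. Erythroid markers fell with OVX in 5 of 6 genes (median -0.53) and rose with CUMS in 5 of 6 (median 0.45), and their summed level was 7666 to 11984 in OVX, 11008 to 18329 in control, 13534 to 25839 in CUMS and 9732 to 13145 in OVX+CUMS mice. CUMS mouse 2 had the highest erythroid sum and the highest Psmd4 level. B cell markers rose with OVX in 3 of 5 genes (median 0.40) and fell with CUMS in 4 of 5 (median -0.43), with summed levels of 198 to 289 in control, 308 to 377 in OVX, 131 to 229 in CUMS and 130 to 314 in OVX+CUMS mice. T cell markers fell with OVX in 2 of 5 genes and with CUMS in 3 of 5, and their summed level was 82.4 to 99.7 in control, 62.2 to 76.6 in OVX, 63.7 to 98.7 in CUMS and 51.5 to 75.7 in OVX+CUMS mice. With the spike-in shift the erythroid medians were -0.18 for OVX (2 of 6 fell) and 0.15 for CUMS (1 of 6 rose), the B cell medians 0.75 and -0.73, and the T cell medians 0.30 (0 called) and -0.66 (4 of 5 fell). All erythroid, B cell and T cell markers were detected in blood. The part of these markers in the proteasome results was not tested.

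Within slide 2, where CUMS and OVX mice lay on the same slide, the members differed in the same sense. Of the 37 genes, 21 were lower and 1 higher in CUMS than in OVX mice (probes: 24 lower and 1 higher; median -0.40, all probes 0.00). Of all probes, 27.9% were called lower and 24.4% higher. Psma6 (-0.75 ± 0.17), Psmc6 (-0.70 ± 0.15) and Psma1 (-0.59 ± 0.15) had the most negative differences, and Psmd4 was higher by 0.56 ± 0.15 (limma, adjusted p from 0.00869 to 0.0159 over the 4 genes). With the spike-in shift, which moved the median of all probes to -0.43, there were 38 member probes lower and 0 higher, and Psmd4 had a difference of 0.13 (limma, adjusted p = 0.598). How many of all probes that shift called is not given here, so the 38 does not set the members apart. Erythroid markers were higher in CUMS mice in 6 of 6 genes there (0 with the spike-in shift). This comparison rests on 4 mice against 4 and mixes the operation with the stress. Without OVX mouse 2 there were 9 member probes called, without OVX mouse 4 or CUMS mouse 3, 5 or 6 there were 10 to 14, and without CUMS mouse 4 there were 37.

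Within slide 1, 2 CUMS mice against 6 controls, 40 of 45 member probes were lower (median -0.35, all probes -0.04). Of the member probes 19 had an unadjusted p below 0.05 although limma called 0 after adjustment. Of all 20767 probes, 6391 had an unadjusted p below 0.05 in that comparison (limma; 0 called). Within slide 3, 6 OVX+CUMS against 2 OVX mice, 43 of 45 were lower (median -0.35, all probes -0.08). Limma called 0 of them, with 23 at an unadjusted p below 0.05, beside 7625 of all 20767 probes (0 called). Psmd4 differed by 0.68 and 0.43 in these comparisons.

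**Figure D4:**
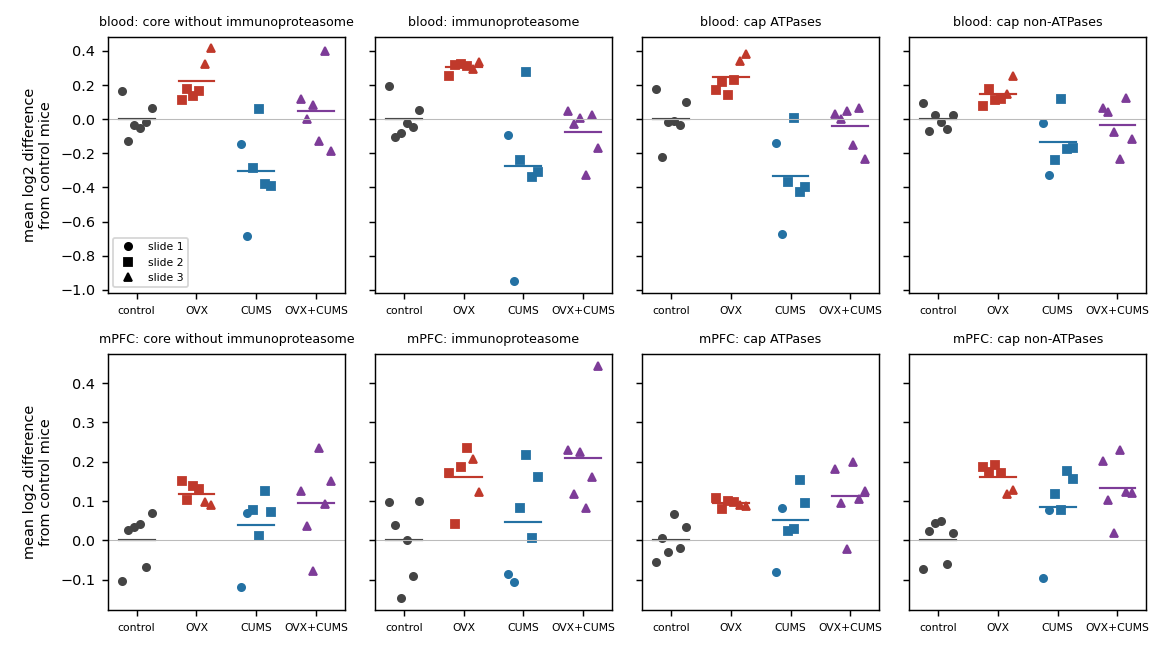
Mean log2 difference from the control mice over the genes of each class, 1 symbol per mouse with the slide as its shape and a line at the group mean, in blood (top) and mPFC (bottom). In blood the immunoproteasome mean was 0.25 to 0.34 in the OVX mice and -0.95 to 0.28 in the CUMS mice. Control and OVX mice shared no slide, and with slide as a block limma called no member probe for OVX.

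No member probe passed the test for the interaction of OVX and CUMS in blood, which asks whether the CUMS effect differed between ovariectomized and sham-operated mice (limma; 4 at an unadjusted p below 0.05, and 0 called without moderation of the variances). Of all probes, 1.29% were called higher and 0.13% lower. None passed the comparison of OVX+CUMS with control mice in blood (limma; 1 at an unadjusted p below 0.05, and 0 called without moderation), where the members' median was 0.00. In blood these groups shared no slide, so slide and group cannot be told apart there. Of all probes, 4.08% were called higher and 2.18% lower in OVX+CUMS mice. In that comparison Psmb8 had a difference of -0.02 ± 0.13 (95% interval -0.27 to 0.24), Psma6 0.25 ± 0.14 and Psmd4 0.00 ± 0.13.

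**Figure D5:**
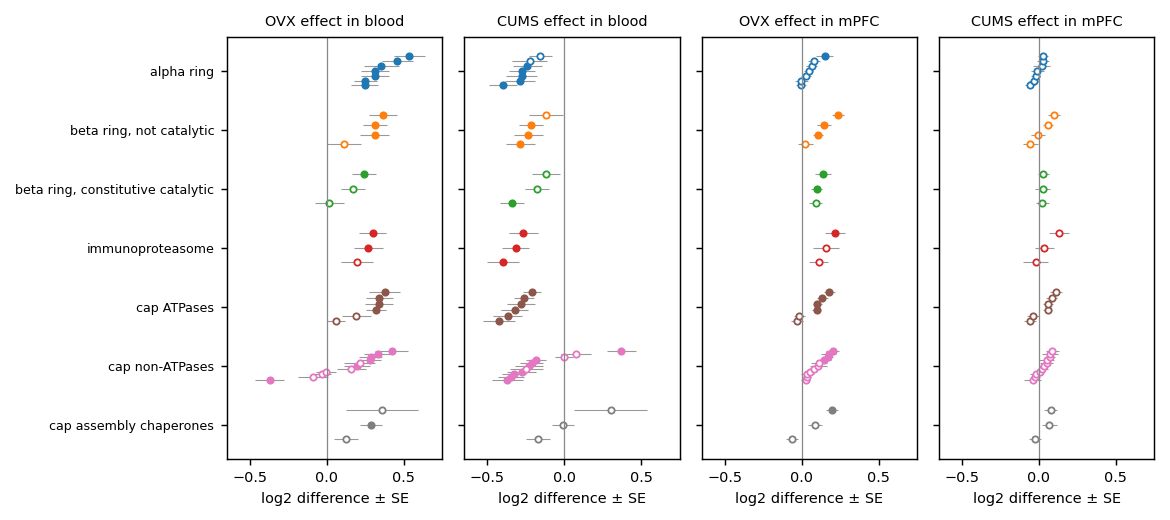
Effects of OVX and CUMS in blood and mPFC for the 37 detected genes by class, as log2 differences with SE; filled points passed limma's test (adjusted p below 0.05) and open points did not. In blood the alpha ring rose in 7 of 7 genes with OVX and the cap ATPases fell in 6 of 6 with CUMS; in mPFC no gene passed for CUMS. The OVX panels changed with the slide block (0 called in each tissue).

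The balance of immunoproteasome and constitutive subunits was compared within each array, as each immunoproteasome gene minus its partner, against the control mice. This gave 18 exact permutation tests (two-sided, 6 against 6 mice, smallest possible p 0.00216), adjusted over the 18. Psmb10 minus Psmb7 was higher in blood of OVX mice by 0.48, with OVX mice from 0.26 to 0.68 and controls from -0.14 to 0.19 around their mean (exact p = 0.00216, adjusted p = 0.039). This was the only comparison that passed. Leaving out control mouse 3, 4, 5 or 6, in turn, gave an adjusted p of 0.0779 by the exact test, and the difference was 0.45 to 0.48. All OVX mice still stood above the remaining controls. With so few mice the exact p moves in coarse steps, so this change says little about those controls. Psmb8 minus Psmb5 was higher by 0.15 in blood of OVX mice (exact p = 0.0281, adjusted p = 0.169), and without control mouse 2 by 0.19 (adjusted p = 0.0195, exact). Controls and OVX mice shared no slide.

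In mPFC, Psmb8 minus Psmb5 differed by 0.23 between OVX+CUMS and control mice (exact permutation test, adjusted p = 0.292). It was 0.32 after normexp correction (adjusted p = 0.0487, exact) and 0.39 after quantile normalization (adjusted p = 0.039, exact). The same pair also passed for OVX mice under both settings (0.23 and 0.22, against 0.10 as reported), and in blood Psmb9 minus Psmb6 was lower in OVX+CUMS mice by them (-0.13 and -0.12). These tests of pairs, and the settings, were chosen after the values were seen.

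In mPFC, 16 of the subunit genes were higher in ovariectomized mice. None of the 37 fell and 21 did not pass the test, and over the 45 probes 21 rose. The median was 0.10 over the member probes and 0.04 over all probes. Of all probes, 19.1% were called higher and 11.7% lower. All OVX mice stood above all controls for 12 of 37 genes, and for 11.4% of all probes. These calls depend on the scaling and the slide. A spike-in shift left 0 higher and 3 lower (members' median -0.03, all probes -0.09), and slide as a block left 0 (limma; 2 at an unadjusted p below 0.05) with a members' median of 0.03. Slides also differed within a condition. Among CUMS mice, slide 2 minus slide 1 (4 against 2) had 39 of 45 member probes higher (median 0.13, all probes 0.06). Limma called 2 of them higher, beside 1739 higher and 2862 lower of all 28358 probes. Among OVX mice, slide 3 minus slide 2 (2 against 4) had 15 member probes higher and 30 lower (median -0.03, 0 called by limma).

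Psmb3, a noncatalytic beta subunit, had the highest OVX effect in mPFC (0.23 ± 0.04, limma, adjusted p = 0.000133). Controls measured 5.21, 5.32, 5.35, 5.37, 5.22 and 5.36 and OVX mice 5.60, 5.55, 5.58, 5.59, 5.58 and 5.58. The groups did not overlap. Psmb8 (0.22 ± 0.06, adjusted p = 0.0123) and Psmd4 (0.20 ± 0.04, adjusted p = 0.000657) followed. Psmb8 measured -1.46, -1.53, -1.69, -1.54, -1.74 and -1.55 in controls and -1.43, -1.52, -1.30, -1.17, -1.30 and -1.47 in OVX mice, which overlapped. Psmd4 ran from 5.57 to 5.78 in controls and from 5.88 to 6.20 in OVX mice. In blood Psmd4 fell with OVX, and in mPFC it rose, neither of which was called with the spike-in shift (0.07 in mPFC). By class, 4 of 6 cap ATPases, 4 of 11 other cap subunits, 3 of 4 noncatalytic beta genes and 1 of 7 alpha genes rose. In the immunoproteasome 1 of 3 rose, and Psmb9 (0.16 ± 0.08) and Psmb10 (0.11 ± 0.06) did not pass. Among the partners Psmb6 (0.10 ± 0.04) and Psmb7 (0.14 ± 0.05) rose and Psmb5 (0.09 ± 0.04) did not pass.

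The comparison of OVX+CUMS with control mice in mPFC gave 12 genes higher and 0 lower (16 probes; median 0.14, all probes 0.06). Of all probes, 20.4% were called higher and 13% lower. Psmb8 (0.35 ± 0.09, limma, adjusted p = 0.005), Psmb3 (0.33 ± 0.05, adjusted p = 9.07e-05) and Psmd4 (0.29 ± 0.06, adjusted p = 0.000481) were highest. Psmb8 in OVX+CUMS mice measured -1.39, -1.30, -1.27, -1.37, -1.21 and -0.89, all above the controls. Of the 37 genes, 7 had all OVX+CUMS mice above all controls and 0 had them below. Of all probes, 8.59% lay wholly above and 8.56% wholly below. The split of higher and lower member probes was 19 and 3 after normexp correction, 12 and 2 after quantile normalization, 15 and 2 with the percentile over detected probes, and 0 and 13 with the spike-in shift (members' median -0.12, all probes -0.20). The shares of all probes called in these alternatives are not given here, so the counts do not set the members apart. Slide as a block gave 0 called (limma; 3 at an unadjusted p below 0.05). The control and OVX+CUMS arrays shared no slide. Without OVX+CUMS mouse 3 there were 27 probes called.

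Microglial markers rose with OVX in mPFC in 3 of 4 genes (median 0.16), and in 3 of 4 in OVX+CUMS against control mice. Their summed level was 20.9 to 23.7 in control, 25.1 to 28.98 in OVX, 20.7 to 27.3 in CUMS and 23.1 to 29.02 in OVX+CUMS mice. All 4 were detected, and with the spike-in shift 0 were called in either comparison. Csf1r and Cd14, listed here as monocyte markers, rose in both comparisons, by 0.13 ± 0.04 and 0.29 ± 0.07 with OVX. With the spike-in shift neither Csf1r (-0.006 with OVX, -0.04 in OVX+CUMS against control mice) nor Cd14 (0.16 and 0.21) was called. Their list, of which 2 of 4 were detected (Ccr2 and Ly6c2 were not), summed to 31.9 to 34.7 in control, 34.9 to 40.7 in OVX, 32.8 to 41.4 in CUMS and 35.2 to 43.3 in OVX+CUMS mice. The T cell marker Cd4 fell with OVX (-0.56 ± 0.09), and Cd3e did not pass (-0.09 ± 0.05). The T cell sum, over 2 of 5 markers, was 9.72 to 11.4 in control and 5.72 to 6.79 in OVX mice. It was 6.02 to 11.1 in CUMS and 6.10 to 7.03 in OVX+CUMS mice. Of the B cell markers, Cd79a fell (-0.79 ± 0.21) and Cd79b rose (0.31 ± 0.07) with OVX. With the spike-in shift Cd4 (-0.70) and Cd79a (-0.92) were still called, and Cd79b (0.18) was not. Of the 6 neuronal markers 1 rose with OVX, Slc17a7 (0.21 ± 0.04; 0.07 and not called with the spike-in shift). In OVX+CUMS against control mice Slc17a7 (0.36 ± 0.06) and Rbfox3 (0.16 ± 0.06) were higher and Gad1 (-0.18 ± 0.07) was lower. With the spike-in shift Slc17a7 (0.10) and Rbfox3 (-0.10) were not called there, and Gad1 (-0.44), Gad2 (-0.35) and Snap25 (-0.32) were called lower. The neuronal sum was 369 to 418 in control, 375 to 406 in OVX, 385 to 414 in CUMS and 379 to 457 in OVX+CUMS mice. In OVX+CUMS against control mice, S100a9 of neutrophils (1.94 ± 0.67) and the erythroid Slc4a1 (0.45 ± 0.16) were higher. The other detected neutrophil and erythroid markers were not called. Cd4 (-0.87 ± 0.13), Cd79a (-1.42 ± 0.30), Prf1 of NK cells (-0.25 ± 0.08) and Mog of oligodendrocytes (-0.45 ± 0.16) were lower. With the spike-in shift Slc4a1 (0.19) was not called. The part of these markers in the proteasome results was not tested.

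For CUMS in mPFC no member probe was called (limma; 7 at an unadjusted p below 0.05; 0 without moderation), and 5 were called lower with the spike-in shift. Without that shift, 2.33% of all probes were called higher and 1.86% lower. The share called with it is not given here, so the 5 does not set the members apart. The interaction gave 0 (limma; 7 at an unadjusted p below 0.05; 0 without moderation), beside 3.37% of all probes higher and 1.12% lower. Within slide 2, CUMS minus OVX gave 0 (limma; 2 at an unadjusted p below 0.05; 0 without moderation), beside 0.0282% higher and 0.0141% lower. Psmb8 and Psmd4 had CUMS effects of 0.13 ± 0.06 and 0.09 ± 0.04 in mPFC.

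The effects of blood and mPFC were compared within mice. For OVX, 9 genes had a more positive effect in blood and 1 a less positive one (12 and 1 probes; median 0.16, all probes 0.03), beside 18.1% and 19.1% of all probes. Psma1 (0.46 ± 0.12), Psmc6 (0.39 ± 0.11) and Psma6 (0.39 ± 0.12) differed most upward. Psmd4 differed by -0.57 ± 0.10 (limma, adjusted p = 0.000194), and by -0.09 with the spike-in shift (adjusted p = 0.564). With slide as a block 0 probes were called (limma; 0 at an unadjusted p below 0.05). For CUMS, 24 genes had a more negative effect in blood and 1 a more positive one (30 and 1 probes; median -0.29, all probes -0.10), beside 31.8% and 18.6%. Psmb8 (-0.44 ± 0.09, adjusted p = 0.00126), Psmc5 (-0.42 ± 0.10, adjusted p = 0.00357) and Psmc6 (-0.38 ± 0.11, adjusted p = 0.00933) were most negative in limma's test, and Psmd4 was 0.28 ± 0.10 (adjusted p = 0.0203; 0.11 with the spike-in shift, adjusted p = 0.506). All 3 immunoproteasome genes and all 6 cap ATPases passed. With slide as a block 20 member probes were called, 19 of them more negative. The share of all probes called in that fit is not given here, so the 20 does not set the members apart.

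Other genes of the pathway were described from fixed lists. Of 5 detected assembly factors, 4 fell with CUMS in blood (median -0.41), with Psmg2 at -0.43 ± 0.08, Psmg3 at -0.42 ± 0.10 and Psmg1 at -0.41 ± 0.09. With OVX 2 rose. All 5 were lower in blood than in mPFC (median -1.51). The activators and the inhibitor, which bind the ends of the core, were higher in blood in 5 of 5 cases (median 1.46). Of these, Psme3 and Psmf1 were higher and 3 lower by the spike-in scale (median -0.45). The immunoproteasome activator Psme2 fell with CUMS in blood (-0.32 ± 0.08), whereas Psme3 (0.35 ± 0.11) and Psmf1 (0.37 ± 0.15), the inhibitor, rose. Psme2 fell by the spike-in scale too (-0.62), and there Psme3 (0.05) and Psmf1 (0.07) were not called. With OVX in blood Psme3 (-0.48 ± 0.11) and Psmf1 (-0.51 ± 0.15) fell, and neither was called with the spike-in shift (-0.13 and -0.16). In mPFC Psme3 fell with OVX (-0.38 ± 0.06) and Psme1 rose (0.20 ± 0.06; 0.06 and not called with the spike-in shift).

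MHC class I peptide supply, which uses the peptides the immunoproteasome makes, had 9 genes detected in blood. With CUMS 7 fell (median -0.28), and with OVX 4 rose. Tap2, a subunit of the peptide transporter, rose with OVX by 0.46 ± 0.10, and its partner Tap1 fell with CUMS (-0.38 ± 0.08). All 7 genes detected in both tissues were higher in blood (median 3.28), as were 6 of 7 with the spike-in shift (median 1.37; 1 lower). In mPFC 1 of 7 rose with OVX, Tapbp, by 0.12 ± 0.04 (-0.01 with the spike-in shift). Of the 11 ubiquitin genes and shuttle factors detected in mPFC, 7 rose with OVX (median 0.11) and 6 were higher in OVX+CUMS than in control mice (median 0.15). Both medians turned with the spike-in shift (-0.03 and -0.11), and 0 were called higher and 1 and 2 lower. With slide as a block none was called in either comparison. In blood Ubb, which encodes ubiquitin, fell with OVX (-0.35 ± 0.11) and rose with CUMS (0.42 ± 0.11), neither of which was called with the spike-in shift (0.002 and 0.13). Of the 9 genes of that list detected in blood, 2 rose and 3 fell with OVX, and 3 rose and 3 fell with CUMS. By the spike-in scale 4 rose and 0 fell with OVX, and 0 rose and 4 fell with CUMS. Of the proteasome-associated genes, 2 of 5 rose with OVX and 2 fell with CUMS in blood. Of the regulators of proteasome genes, Ddi2 fell with OVX in blood (-0.61 ± 0.19) and rose with OVX in mPFC (0.13 ± 0.03), neither of which was called with the spike-in shift (-0.26 and -0.01). The OVX calls in blood and mPFC among these lists were all lost with slide as a block, since no probe of either tissue was called there.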

How the data were processed

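Blood and mPFC of 24 mice were measured on 48 arrays (design 028005). Per the labels, total RNA was labelled with Cy3, and the authors used Feature Extraction 10.7.3.1; its processed signal intensity was deposited for 62976 spots per array, of which 3671 were controls. The authors also deposited a table of log2 values, shifted to the 75th percentile; 100.0% of its single-spot values came within 0.001 of the values computed here, and it served as an alternative. Here the log2 processed signal was shifted by the 75th percentile of each array and the spots of a probe were averaged. Detection in a tissue required that most spots of a probe be significant and well above background on each of its 24 arrays, with a processed signal over 50 on 2 arrays or more. This left 20767 probes in blood, 28358 in mPFC and 17544 in both. No spot was saturated.

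OVX, CUMS and their interaction were fitted with limma 3.58.1 (R 4.3.3) over all detected probes of a tissue, after a two-factor design like that of the study, and blood and mPFC were compared as differences within a mouse. The adjustment was Benjamini-Hochberg at 0.05. The tests were checked on simulated data. The number of arrays limits the precision, and p-values measure the spread between mice within groups. Where the groups compared shared no slide, the p-values do not cover differences between slides. Genes were named as the 6 catalytic subunits, up to 3 called genes in each direction per comparison, members with no detected probe or opposed probes, and up to 3 called genes per pathway list. The members, classes, lists and markers were chosen with earlier results of these data known. Alternatives were normexp correction (offset 50), quantile normalization, other percentiles, a spike-in shift, no detection filter, no moderation, the slide or mouse number as a block, and each mouse left out. Mouse numbers of different groups did not pair the mice. Upstream sequences came from RefSeq (GRCm38.p6), and probe positions (mm9) from the array files. Single values of some genes on the pathway lists are not reported here.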

Additional observations from a re-analysis of the deposited data

Results flagged for a closer look

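Among 128 groups of 6 mice tested for 16 genes, 12 held a mouse whose gap to the nearest other mouse exceeded, as a share of the group's range, the critical value of Dixon's test, and chance flags about 1 group in 20. In blood these were Psmb10 in control mouse 1 (4.58), Psmb6 in OVX mouse 6 (4.27), Psmd3 in control mouse 2 (2.75) and Psmd4 in CUMS mouse 2 (7.57). In mPFC they were Psmb10 in OVX mouse 3 (4.75) and OVX+CUMS mouse 5 (4.94), Psmb3 in OVX mouse 2 (5.55), Psmb7 in OVX+CUMS mouse 3 (3.05), Psmb8 in OVX+CUMS mouse 6 (-0.89), Psmc5 in control mouse 4 (5.34), Psmd1 in OVX+CUMS mouse 3 (4.93) and Psmd4 in OVX mouse 3 (6.20). OVX+CUMS mouse 3 accounted for 2 of them.

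The effects in blood and mPFC differed for several genes in limma's test of the difference within mice. For OVX the differences were 0.46 for Psma1, 0.39 for Psmc6, 0.39 for Psma6 and -0.57 for Psmd4, and none was called with slide as a block; with a spike-in shift that of Psmd4 was -0.09 and not called. For CUMS they were -0.44 for Psmb8, -0.38 for Psmb9, -0.30 for Psmb10, -0.37 for Psmb6, 0.28 for Psmd4, -0.42 for Psmc5 and -0.38 for Psmc6.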

How the results depend on the processing

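Counts below are called member probes of 45. Shares of all probes under these alternatives are given only where stated, so the counts alone do not set the members apart. With slide as a block, 0 were called for OVX in blood and in mPFC, for OVX+CUMS minus control in mPFC and for the OVX difference between tissues, and 20 for the CUMS difference between tissues (chosen after seeing the data for both tissue differences); the OVX effects of Psmb8 and Psmb10 in blood became -0.018 and -0.11. With the spike-in shift, the counts were 42 for OVX in blood, 38 within slide 2 in blood, 3 (all lower) for OVX in mPFC, 5 for CUMS in mPFC, 13 (all lower) for OVX+CUMS minus control in mPFC, 40 for the OVX difference and 18 for the CUMS difference; Psmb6 in mPFC became -0.037 for OVX and Psmd4 -1.09 for blood minus mPFC. Psmd4 was not called by that shift for OVX (-0.02) or CUMS (0.08) in blood or for OVX in mPFC (0.07). Without the detection filter they were 18 for CUMS in blood, 8 within slide 2, 8 for the OVX difference and 13 for the CUMS difference. Quantile normalization gave 13 for OVX in mPFC and 24 for the OVX difference, the percentile over detected probes 24 and normexp 20 for that difference. The cause was not tested.

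Leaving out 1 mouse gave 0 to 4 for CUMS in mPFC (4 without CUMS mouse 1), 0 to 6 for the interaction in mPFC (6 without CUMS mouse 1), 0 to 1 for the interaction and for OVX+CUMS minus control in blood, 9 to 37 within slide 2 in blood and 14 to 27 for OVX+CUMS minus control in mPFC (27 without OVX+CUMS mouse 3). It gave 26 to 30 for OVX in blood, 26 to 37 for CUMS in blood and 16 to 26 for OVX in mPFC. Mouse numbers as a replicate block left 26 probes called by OVX in blood, 30 by CUMS there, 18 by OVX in mPFC and 16 between OVX+CUMS and control mPFC. Same-numbered mice did not deviate together (correlations from -0.51 to 0.49 in blood and from -0.23 to 0.39 in mPFC).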
